A study of Mus musculus with 12 samples.

Results

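Sox10, Foxd3, Sox8, Sox9, Snai2, Ets1 and Ednrb are genes of the neural crest and of the glial lineage that arises from it. They were taken by gene symbol, 7 of the 53342 genes of the deposited RNA-seq table, and are described across 12 libraries made from the caudal end of E10.5 mouse embryos. Each of 4 genotypes had 3 libraries: wild type, Vangl2 Lp/Lp, Emg1 cKO and beta-catenin cKO. The study addressed how the spinal neural tube fails to close in the mutants. A cKO is a conditional knockout, in which a recombinase deletes the gene in the cells that carry it. Of the mice, the recombinase driver, its cell types, the deleted exons and the strain were not given in the sources used here. Lp, loop-tail, is a missense allele of Vangl2, a core planar cell polarity gene, and Lp/Lp embryos are homozygous for it. Every library was made from RNA of a pool of 4 to 7 embryos, so the error given below is the spread between pools and not between embryos. All 7 genes passed the filter for testing, at least 1 TPM (a transcript level corrected for transcript length and scaled to a fixed library total) in at least 3 of the 12 libraries, as did 17848 genes in all.

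Neural crest cells arise at the border of the neural plate, leave the dorsal neural tube by an epithelial-to-mesenchymal transition, and migrate to form peripheral neurons, Schwann cells, melanocytes and, in the head, skeleton. FOXD3, SNAI2, ETS1 and the SOXE factors SOX8, SOX9 and SOX10 are transcription factors of this program, acting from specification to migration. SOX10 stays on in migrating crest and its glia, and EDNRB is the receptor through which endothelin 3 acts on crest cells of the enteric and melanocyte lineages. Most of these genes are also used elsewhere in the caudal embryo: Sox9 in neural progenitors and in sclerotome that forms cartilage, Ets1 in endothelium, Snai2 in mesenchyme, and Ednrb in neural progenitors.

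The SOXE genes are close relatives, and the finding that turns on them is that Sox10 and Sox9 moved in opposite directions in beta-catenin cKO. Whether reads could be told apart between them is visible in their coding sequence. The stretch shown is 120 coding bases of the DNA-binding HMG box, the run of that length in which Sox10 shares most bases with the other two, on the coding strand from GENCODE vM21 transcripts (mm10). It spans coding bases 307 to 426 of Sox10 (chromosome 15), 310 to 429 of Sox9 (chromosome 11) and 292 to 411 of Sox8 (chromosome 17). Capitals mark bases at which a gene differs from at least 1 of the other two.
Sox10: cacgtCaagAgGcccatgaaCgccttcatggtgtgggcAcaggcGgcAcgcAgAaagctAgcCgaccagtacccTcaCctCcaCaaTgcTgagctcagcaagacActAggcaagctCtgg
Sox9: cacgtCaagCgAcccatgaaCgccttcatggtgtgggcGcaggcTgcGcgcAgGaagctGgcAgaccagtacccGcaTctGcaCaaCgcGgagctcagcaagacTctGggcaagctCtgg
Sox8: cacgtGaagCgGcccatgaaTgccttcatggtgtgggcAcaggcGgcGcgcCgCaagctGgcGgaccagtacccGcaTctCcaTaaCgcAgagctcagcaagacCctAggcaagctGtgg
In this stretch Sox10 shared 87.5% of its bases with Sox9 and 87.5% with Sox8, and Sox9 shared 88.3% with Sox8. Over the whole aligned coding sequence, identity was 74.0% between Sox9 and Sox10, 72.7% between Sox8 and Sox9, and 69.6% between Sox8 and Sox10. The longest identical run was 44 bases, between Sox9 and Sox10. No stretch of 50 bases was shared between any of the 7 genes. Sox10, Sox9 and Ets1 shared 0 of 3043, 0 of 4086 and 0 of 8567 such stretches with any other annotated gene. Sox8 shared 8.99% of its stretches, with an antisense gene that overlaps its start, and no source used here gives the strand setting of the counting, so reads of that stretch may belong to either. Foxd3, a gene of 1 exon, shared 2.59%, with Foxd4 and a small gene annotated inside it. Snai2 and Ednrb shared 0.963% and 0.376%. For Sox10 and Snai2 the gene span in this annotation differed from that of the deposited table. These shares may therefore not hold for the gene models that the authors counted.

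Library totals ran from 32863562 to 46464596 reads. Emg1 mRNA fell to 46.0 TPM in its own knockout from 73.9 TPM (log2 fold change -0.81, adjusted p = 9.54e-06 in edgeR's quasi-likelihood test). Ctnnb1, which encodes beta-catenin, had 811 TPM in wild type and 823 TPM in its knockout (-0.09, not called, adjusted p = 0.203), and a deletion of some exons in some cells need not show in the count of a whole gene, so that label stays unchecked. Vangl2, which carries a missense allele, had 77.2 TPM in the homozygotes (0.17, not called, adjusted p = 0.0741). The caudal label was checked with Hoxc10, a gene of the posterior trunk, at 202 to 249 TPM in 11 libraries. It was at 116 TPM in Vangl2 Lp/Lp replicate 1, which also held the most neuronal RNA of its group, a summed 1175 TPM over 16 neuron genes against 644 and 650 TPM in the other two. Results that rest on that library are given without it as well.

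Among the 7 genes, Sox10 fell in beta-catenin cKO, Sox9 rose in all 3 mutants, and Ednrb rose in Emg1 cKO and Vangl2 Lp/Lp. Sox8, Foxd3, Snai2 and Ets1 were not called in any of the 6 comparisons between genotypes. A gene was called where its adjusted p was under 0.05 over the 17848 genes tested. Against wild type, 1 member was higher and 1 lower in beta-catenin cKO, where 14.5% of all tested genes were called, 7.48% higher and 6.99% lower. In Emg1 cKO 2 members were higher and 0 lower, where 21.7% were called, 11.3% higher and 10.4% lower. In Vangl2 Lp/Lp 2 members were higher and 0 lower, where 8.8% were called, 5.45% higher and 3.34% lower. In scaled counts the libraries did not overlap for 3 members in beta-catenin cKO, for 2 in Emg1 cKO and for 2 in Vangl2 Lp/Lp, while this held for 34.7%, 35.6% and 28.3% of all tested genes. With 7 members, nothing is read from these counts beyond the genes themselves. The median log2 fold change of the members was -0.08, -0.03 and 0.05 in beta-catenin cKO, in Emg1 cKO and in Vangl2 Lp/Lp, and that of all tested genes 0.0001, 0.0044 and 0.0006. These 3 comparisons share the wild-type libraries. Between mutants fewer genes were called. In beta-catenin cKO 2 members were lower than in Emg1 cKO, where 3.26% of all genes were called (1.37% higher, 1.89% lower) and 23.8% did not overlap, against 3 members. In beta-catenin cKO 1 member was lower than in Vangl2 Lp/Lp, where 3.87% were called (1.62% higher, 2.25% lower) and 21.4% did not overlap, against 4 members. In Emg1 cKO 1 member was higher than in Vangl2 Lp/Lp, where 2.83% were called (1.32% higher, 1.51% lower) and 21.6% did not overlap, against 2 members.

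**Figure D1:**
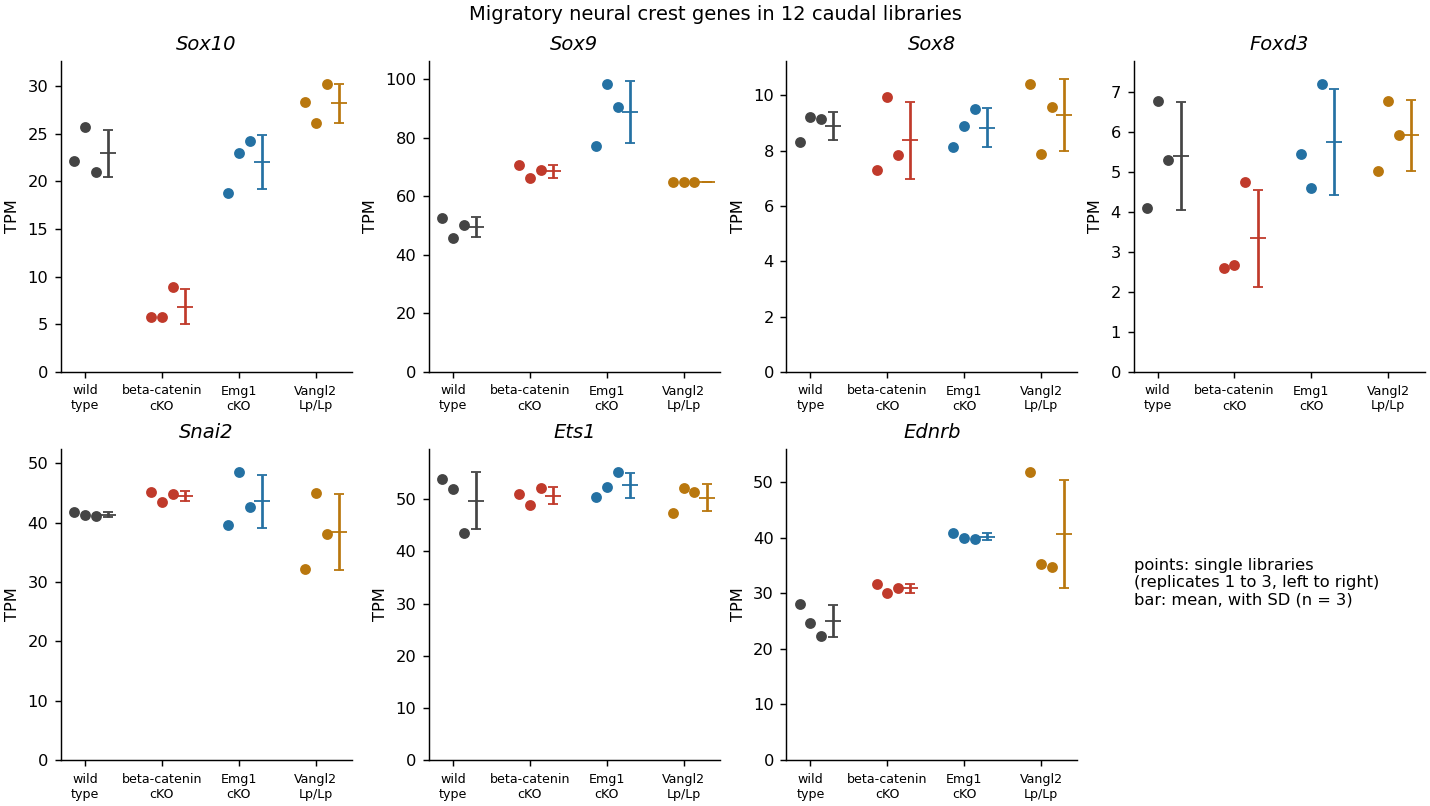
TPM (vertical axes, linear, each starting at 0) of the 7 genes in the 12 libraries, 1 panel per gene, with a point per library and a bar for mean ± SD of 3 libraries. Sox10 in the beta-catenin cKO libraries lies between 5.75 and 8.94 TPM, below the 9 other libraries, which lie between 18.8 and 30.2 TPM.

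Sox10 (ENSMUSG00000033006, mm10 chr15:79154913-79164490, minus strand, protein-coding, 5 exons in the transcript used) encodes the SOXE factor that keeps migrating crest cells multipotent and drives glial fate. Its level in replicates 1, 2 and 3 was 22.1, 25.7 and 21 TPM in wild type, and 5.75, 5.79 and 8.94 TPM in beta-catenin cKO. It was 18.8, 23 and 24.2 TPM in Emg1 cKO, while Vangl2 Lp/Lp had 28.3, 26.1 and 30.2 TPM. The beta-catenin cKO libraries were the lowest 3 of the 12 with no overlap, and replicate 3 was the highest of them. Against wild type the fall was 3.62-fold (log2 fold change -1.85 ± 0.15 SE, 95% interval -2.18 to -1.53, adjusted p = 3.13e-06), and it was called with each library left out, from -2.10 without beta-catenin cKO replicate 3 to -1.75. Sox10 was also 3.2-fold lower in beta-catenin cKO than in Emg1 cKO (adjusted p = 3.85e-05) and 4.2-fold lower than in Vangl2 Lp/Lp (adjusted p = 2.23e-06). It was not called in Emg1 cKO (-0.18, interval -0.48 to 0.12, adjusted p = 0.405) or in Vangl2 Lp/Lp (0.21, interval -0.08 to 0.51, adjusted p = 0.364) against wild type. In the order of mean levels, beta-catenin cKO was called against its neighbour Emg1 cKO. Neither Emg1 cKO and wild type nor wild type and Vangl2 Lp/Lp were called apart. In TPM the Vangl2 Lp/Lp libraries all lay above wild type, while in scaled counts these groups overlapped. In tissue RNA, fewer cells of a type and less RNA per cell cannot be told apart.

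Foxd3 (ENSMUSG00000067261, chr4:99656299-99658622, plus strand, protein-coding) encodes a winged-helix factor that marks premigratory and migrating crest. It was the lowest of the 7, at 4.1, 6.78 and 5.29 TPM in wild type and 2.6, 2.67 and 4.74 TPM in beta-catenin cKO. In Emg1 cKO it was at 5.44, 4.59 and 7.19 TPM, with Vangl2 Lp/Lp at 5.02, 6.78 and 5.93 TPM. Beta-catenin cKO replicates 1 and 2 were the lowest of the 12 libraries, while replicate 3, in which Sox10 was also highest of the group, overlapped wild type. The estimate against wild type was -0.80 ± 0.26 on the log2 scale (interval -1.35 to -0.25), and it missed the threshold by little (adjusted p = 0.0502). Single libraries decided it, since without beta-catenin cKO replicate 3 it was -1.15 and called (adjusted p = 0.017), and without wild type replicate 1 it was -0.98 and called (adjusted p = 0.0239). These values rest on few reads, between 58.99 and 185.4 per library. Against Vangl2 Lp/Lp the estimate was -0.85 and all beta-catenin cKO libraries lay below (adjusted p = 0.0916, or 0.0304 and -1.19 without beta-catenin cKO replicate 3). Foxd3 was not called in Emg1 cKO (-0.03, interval -0.56 to 0.50) or Vangl2 Lp/Lp (0.05) against wild type.

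Sox9 (ENSMUSG00000000567, chr11:112782224-112787760, plus strand, protein-coding, 3 exons) encodes the SOXE factor of early crest, neural progenitors and cartilage precursors. Its level was 52.5, 45.8 and 50.2 TPM in wild type, and 70.7, 66.2 and 68.8 TPM in beta-catenin cKO. It was 77.3, 98.3 and 90.4 TPM in Emg1 cKO, while Vangl2 Lp/Lp had 64.8, 64.7 and 64.8 TPM. All 9 mutant libraries lay above the 3 wild-type libraries, with Emg1 cKO highest. Against wild type the log2 fold change was 0.36 ± 0.08 SE (adjusted p = 0.00903) in beta-catenin cKO, 0.72 ± 0.08 (adjusted p = 3.55e-05) in Emg1 cKO and 0.30 ± 0.08 (adjusted p = 0.0308) in Vangl2 Lp/Lp. These estimates come from scaled counts and are smaller than the ratios of mean TPM. The call in Vangl2 Lp/Lp was lost without any of its 3 replicates (adjusted p 0.0645 to 0.083), without wild type replicate 1 (adjusted p = 0.0502) and without wild type replicate 2 (0.24, adjusted p = 0.114). Emg1 cKO was above beta-catenin cKO by 0.37 on the log2 scale (adjusted p = 0.0205) and above Vangl2 Lp/Lp by 0.42 (adjusted p = 0.01). Without Emg1 cKO replicate 2, neither difference was called (adjusted p = 0.12 and 0.0635), and that from beta-catenin cKO was also lost without Emg1 cKO replicate 3 (0.0529) or beta-catenin cKO replicates 2 (0.0851) or 3 (0.0907). Beta-catenin cKO and Vangl2 Lp/Lp were not called apart (0.05, adjusted p = 0.869), though all beta-catenin cKO libraries lay above those of Vangl2 Lp/Lp. Such a lack of overlap held for 21.4% of all tested genes between these genotypes.

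A share of the genes of other tissues that use Sox9 was also called higher. Of 13 tested sclerotome and cartilage genes, 7 were higher in beta-catenin cKO, 11 in Emg1 cKO and 4 in Vangl2 Lp/Lp, and 0 were lower. Col2a1, the cartilage collagen and a known SOX9 target, rose in the 3 mutants from 104 TPM to 163, 193 and 163 TPM (log2 fold changes 0.54, 0.77 and 0.56, adjusted p up to 6.54e-05). Pax1, a sclerotome factor, rose by 0.87, 0.90 and 0.59. The summed level of this list was 496 to 502 TPM in wild type, 711 to 764 in beta-catenin cKO, 744 to 775 in Emg1 cKO and 591 to 659 in Vangl2 Lp/Lp. Summed neural progenitor genes, 18 of them, ran from 1002 to 1025 TPM in wild type, 1213 to 1312 in beta-catenin cKO, 1297 to 1348 in Emg1 cKO and 1252 to 1374 in Vangl2 Lp/Lp. Of these 18, 6 were called higher in beta-catenin cKO (5 to 10 over the settings tried), 9 in Emg1 cKO and 11 in Vangl2 Lp/Lp (7 without its replicate 3), and 0 were called lower. The part of either tissue in the Sox9 level was not tested.

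Since Sox10 and Sox9 levels are given per transcript length, the balance of SOXE mRNA could be read in each library. Sox10 made up 28.2 ± 3.13% (SD, n = 3) of summed SOXE TPM in wild type and 27.6 ± 1.21% in Vangl2 Lp/Lp. It made up 18.4 ± 0.964% in Emg1 cKO, and 8.11 ± 1.98% in beta-catenin cKO, without overlap between these 2 genotypes or with the others. The Sox9 to Sox10 ratio was 2.18 ± 0.35 in wild type, 4.04 ± 0.277 in Emg1 cKO and 2.31 ± 0.166 in Vangl2 Lp/Lp, and 12.3, 11.4 and 7.69 in the beta-catenin cKO libraries. In Emg1 cKO the lower Sox10 share went with a higher Sox9 level, as Sox10 itself was not called there. Summed SOXE mRNA was 81.3 ± 1.4 TPM in wild type, 83.8 ± 1.8 in beta-catenin cKO, 119 ± 13.6 in Emg1 cKO and 103 ± 3.39 in Vangl2 Lp/Lp. Shares and sums were not tested. On the log2(TPM + 1) scale the median change of all tested genes against wild type was positive in each mutant. It was 0.10 in beta-catenin cKO, 0.11 in Emg1 cKO and 0.08 in Vangl2 Lp/Lp. Sums of TPM, here and for the gene lists, include such a shift.

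**Figure D2:**
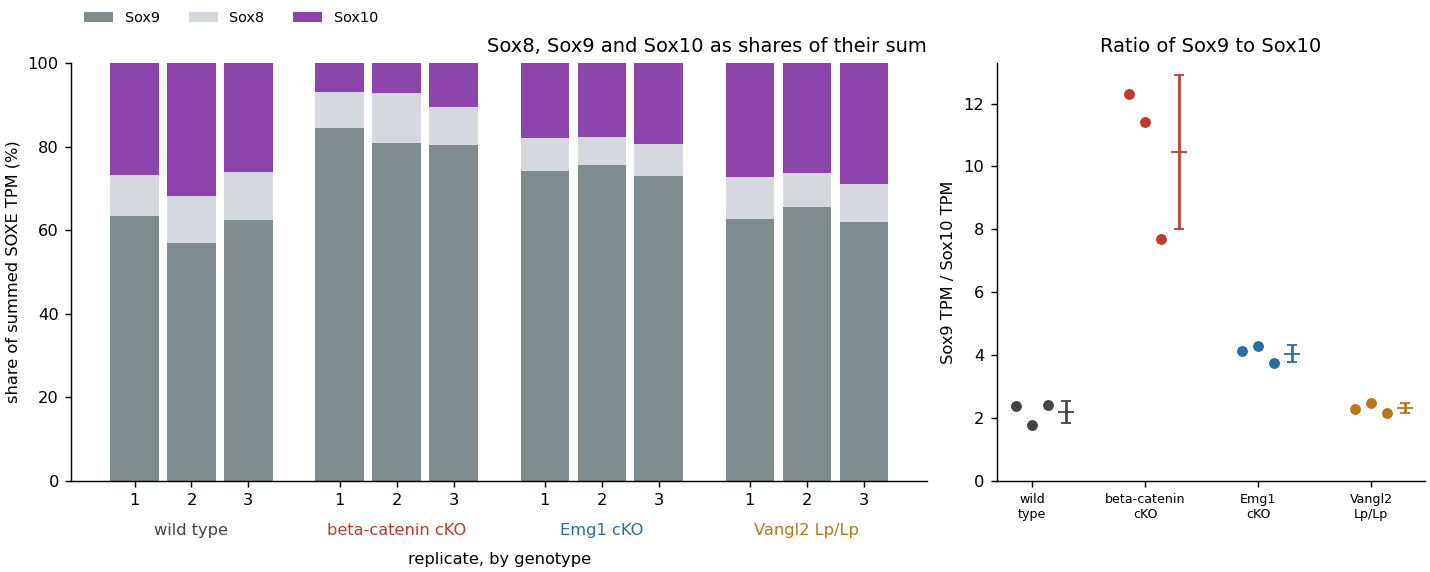
Left, shares of Sox9, Sox8 and Sox10 in their summed TPM (vertical axis, percent) in each of the 12 libraries. Right, the Sox9 to Sox10 ratio (vertical axis, linear from 0), with a point per library and mean ± SD of 3 libraries, which is highest in beta-catenin cKO, at 7.69 to 12.3.

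Sox8 (ENSMUSG00000024176, chr17:25565892-25570686, minus strand, protein-coding, 3 exons) encodes the SOXE member that overlaps with SOX10 in crest derivatives. Its level was 8.32, 9.21 and 9.13 TPM in wild type, 7.31, 9.95 and 7.85 in beta-catenin cKO, 8.11, 8.89 and 9.49 in Emg1 cKO, with 10.4, 7.88 and 9.57 in Vangl2 Lp/Lp. The groups overlapped throughout. Against wild type the estimate was -0.20 in beta-catenin cKO (interval -0.51 to 0.10, adjusted p = 0.367), an interval that does not reach that of Sox10. It was -0.13 in Emg1 cKO (adjusted p = 0.549) and -0.03 in Vangl2 Lp/Lp (adjusted p = 0.935). The mean Sox10 to Sox8 ratio was 2.58 in wild type, 2.49 in Emg1 cKO, 3.06 in Vangl2 Lp/Lp and 0.836 in beta-catenin cKO.

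Snai2 (ENSMUSG00000022676, chr16:14705852-14709395, plus strand, protein-coding) encodes a zinc-finger repressor of epithelial genes used in crest delamination, and Ets1 (ENSMUSG00000032035, chr9:32636221-32757820, plus strand, protein-coding) a factor of crest and endothelium. Snai2 was at 41.8, 41.2 and 41.1 TPM in wild type, 45.1, 43.5 and 44.8 in beta-catenin cKO, 39.6, 48.5 and 42.6 in Emg1 cKO, with 32.1, 45.0 and 38.1 in Vangl2 Lp/Lp. Ets1 was at 53.8, 52.0 and 43.5 TPM in wild type, 51.0, 48.9 and 52.2 in beta-catenin cKO, 50.5, 52.4 and 55.2 in Emg1 cKO, with 47.4, 52.2 and 51.4 in Vangl2 Lp/Lp. All groups lay at nearly the same level, with more scatter in Vangl2 Lp/Lp for Snai2. The estimate against wild type was -0.01, -0.05 and -0.19 for Snai2, in the order beta-catenin cKO, Emg1 cKO, Vangl2 Lp/Lp (adjusted p = 0.965, 0.803 and 0.286). For Ets1 it was -0.08, -0.03 and -0.06 (adjusted p = 0.387, 0.747 and 0.555). Except for Snai2 in Vangl2 Lp/Lp, the sign of these estimates changed among the settings tried. Summed levels of 16 endothelial genes were 630 to 674 TPM in wild type, 693 to 702 in beta-catenin cKO, 624 to 675 in Emg1 cKO and 606 to 639 in Vangl2 Lp/Lp, so that the beta-catenin cKO libraries lay above wild type on this TPM scale. On scaled counts 0 of the 16 were called in beta-catenin cKO (median log2 fold change -0.03), 1 was higher and 4 lower in Emg1 cKO (0 to 5 lower over the settings tried), and 3 were lower in Vangl2 Lp/Lp, 0 without its replicate 1. The part of endothelium in the Ets1 level was not tested. Of 23 tested genes of epithelial-to-mesenchymal transition, 3 were higher and 1 lower in beta-catenin cKO, 7 and 2 in Emg1 cKO, with 2 and 0 in Vangl2 Lp/Lp. Over the settings tried these were 2 to 6 and 0 to 2, 5 to 9 and 0 to 4, and 0 to 3 and 0 to 2, and the 2 higher genes in Vangl2 Lp/Lp came to 0 without its replicate 1. Mmp14, a membrane-anchored protease that cleaves matrix, rose in beta-catenin cKO from 53.1 to 73.1 TPM (0.35, adjusted p = 0.0011), and in Emg1 cKO the level was 77.4 TPM (0.43, adjusted p = 0.000154). Of 20 tested genes of the ETS family besides Ets1, 3 were lower in beta-catenin cKO (0 to 4 over the settings tried), 3 higher in Emg1 cKO (0 to 6) and 0 called in Vangl2 Lp/Lp (0 to 1). Beside these and the other list counts stand the shares of all tested genes. Called higher and lower were 7.48% and 6.99% in beta-catenin cKO, 11.3% and 10.4% in Emg1 cKO, with 5.45% and 3.34% in Vangl2 Lp/Lp. List counts near those shares are not read as results about a list.

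Ednrb (ENSMUSG00000022122, chr14:103814625-103844402, minus strand, protein-coding, 8 exons) encodes the endothelin receptor of crest. Its level was 28.0, 24.6 and 22.4 TPM in wild type, and 31.6, 30.0 and 31.0 TPM in beta-catenin cKO. It was 40.9, 39.9 and 39.8 TPM in Emg1 cKO, while Vangl2 Lp/Lp had 51.8, 35.3 and 34.8 TPM. Every mutant library lay above every wild-type library, and the Emg1 cKO libraries lay closest to each other. Against wild type it rose 1.49-fold in Emg1 cKO (0.57 ± 0.12, interval 0.32 to 0.82, adjusted p = 0.00287) and 1.54-fold in Vangl2 Lp/Lp (0.62 ± 0.12, interval 0.37 to 0.87, adjusted p = 0.0044). In beta-catenin cKO it was not called (0.20 ± 0.12, interval -0.05 to 0.45, adjusted p = 0.278), though without overlap, as held for 34.7% of all tested genes. Vangl2 Lp/Lp replicate 1 was high, and without it the rise was 0.41 and still called (adjusted p = 0.00411). Beta-catenin cKO was not called lower than Vangl2 Lp/Lp (-0.42, adjusted p = 0.0561), a difference that was called without Vangl2 Lp/Lp replicate 2 (-0.51, adjusted p = 0.0401) and without replicate 3 (-0.53, adjusted p = 0.0221), and that shrank to -0.21 without replicate 1 (adjusted p = 0.149). The neural progenitor sums given beside Sox9 were higher in the mutants here too, and their part in the Ednrb level was not tested.

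The ligand that acts on EDNRB moved in a different pattern. Edn3, endothelin 3, was at 7.7 TPM in wild type and rose in beta-catenin cKO to 11.7 TPM (0.49 ± 0.10, adjusted p = 0.00518). It was at 10.3 TPM in Emg1 cKO (0.30, adjusted p = 0.0474), a call lost without wild type replicates 2 or 3 or Emg1 cKO replicates 1 or 3 (adjusted p 0.116 to 0.127) and also with no filter (0.138), filterByExpr (0.0539), the replicate block (0.0649) or only the 2 genotypes fitted (0.0839), and at 8.28 TPM in Vangl2 Lp/Lp (0.02, adjusted p = 0.916). Of 9 tested genes of endothelin signalling, 2 were higher in beta-catenin cKO, 2 in Emg1 cKO and 0 in Vangl2 Lp/Lp, and 0 were lower in any. The count in Emg1 cKO was 0 when replicate 3 of either group was left out. Over the settings tried, 1 to 2 were higher and 0 to 1 lower in beta-catenin cKO. In Emg1 cKO these were 0 to 3 and 0 to 1, and in Vangl2 Lp/Lp 0 to 1 were higher. Ednra, the other endothelin receptor, at 28.8 to 34.4 TPM by genotype mean, and Ece1, the converting enzyme, at 62.6 to 75.9 TPM, were not called and are named here after their values were seen.

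**Figure D3:**
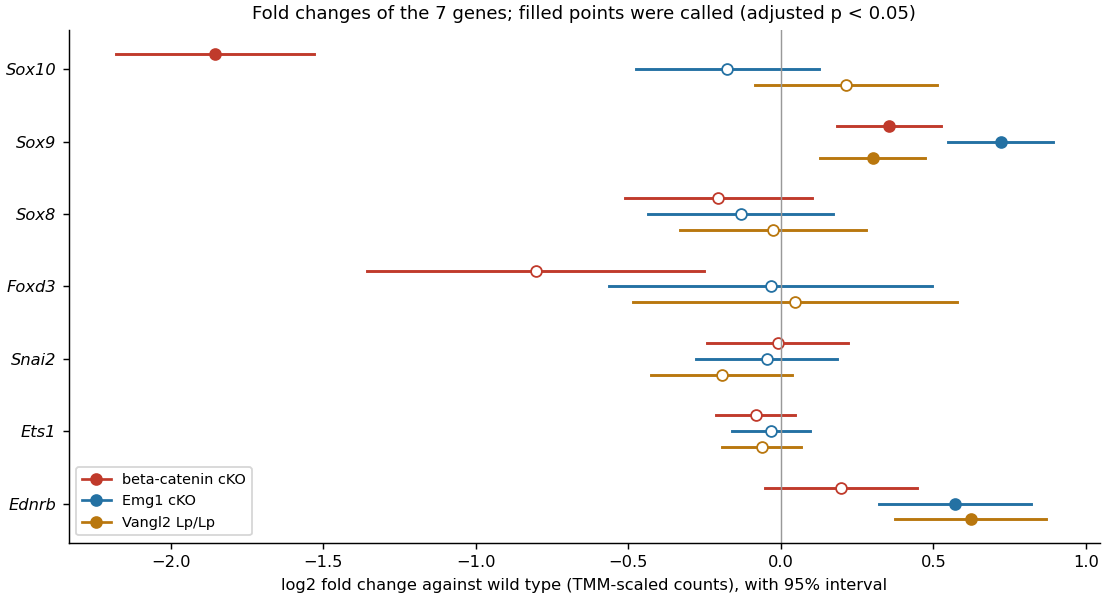
Log2 fold change (horizontal axis) with 95% interval of each of the 7 genes in the 3 mutant genotypes against wild type, with points filled where called. Sox10 in beta-catenin cKO lies at -1.85, and Foxd3 at -0.80, which was not called.

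Genes whose level followed each member most closely over the 12 libraries were found by Pearson's r on log2 scaled counts. The libraries share genotypes, so these are descriptions of 4 groups more than of 12 independent points. Among the nearest to Sox10 were Olig3, a factor of dorsal neural progenitors, at r = 0.97, and Msx3, a homeobox gene of the dorsal neural tube, at 0.96. Olig3 was at 27.9 TPM in wild type, 12.7 in beta-catenin cKO, 26.7 in Emg1 cKO and 41.2 in Vangl2 Lp/Lp, and fell in beta-catenin cKO by 1.25 on the log2 scale (adjusted p = 1.5e-05). Msx3 was at 21.1, 10.4, 20.2 and 29.2 TPM in the same order and fell by 1.14 (adjusted p = 7.73e-05). Nearest to Sox9 were Bmp1 at 0.95, a protease that matures fibrillar collagens, H13 at 0.94 and Tcf7l2 at 0.94. Nearest to Ednrb were Kirrel2, Tmem163 and Fhod3, each at 0.97. Of these, Kirrel2 and Tmem163 lay under 1 TPM in every wild-type and beta-catenin cKO library. Their means there were 0.328 and 0.728 TPM for Kirrel2, and 0.492 and 0.77 TPM for Tmem163. Kirrel2 was at 5.43 TPM in Vangl2 Lp/Lp replicate 1 and at 1.47 and 1.55 TPM in the other two, and so shared the high library with Ednrb. Foxd3 was followed by Fzd10, a WNT receptor, at 0.88, and in beta-catenin cKO Fzd10 fell from 67.2 to 47.0 TPM (-0.63, adjusted p = 0.000836). The nearest genes to Sox8, Snai2 and Ets1 were at 0.92 or less, namely Rtl8c at 0.92, Arl14ep at 0.85 and Hpse2 at 0.91.

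**Figure D4:**
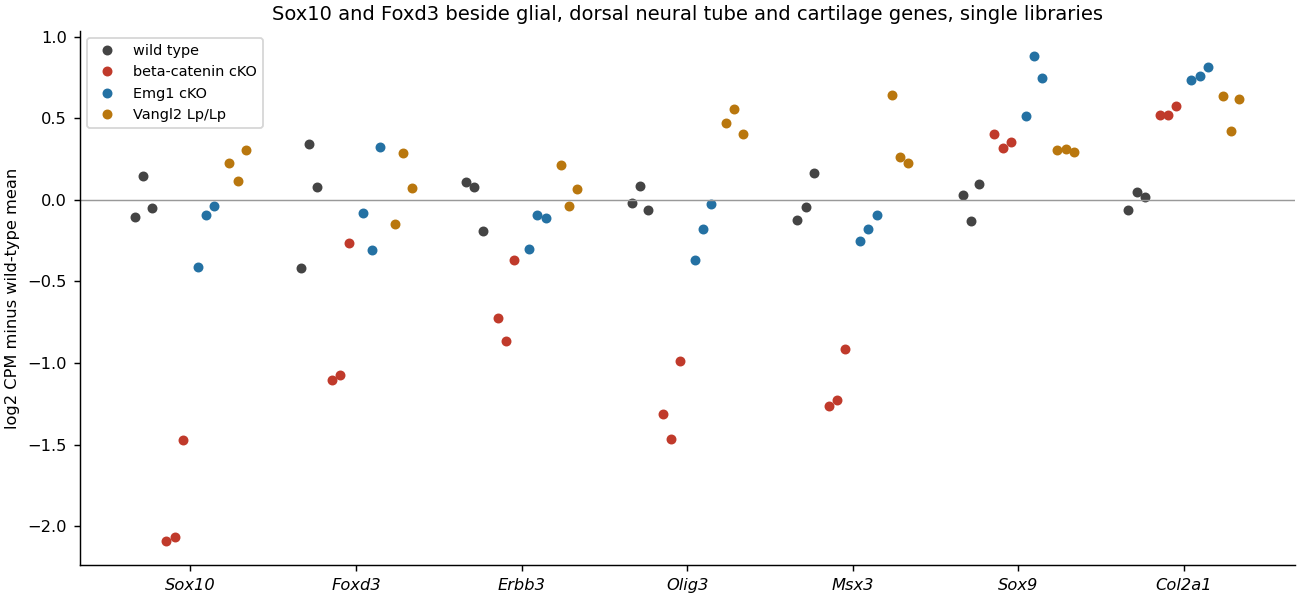
Log2 CPM of single libraries minus the wild-type mean of the same gene (vertical axis) for 7 genes along the horizontal axis, with a point per library, coloured by genotype, and a line at 0. The 3 beta-catenin cKO libraries lie below every other library for Sox10, Olig3 and Msx3 (fitted log2 fold changes of -1.85, -1.25 and -1.14) and above every wild-type library for Sox9 and Col2a1.

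Other migratory crest genes went both ways in beta-catenin cKO. Of 23 tested genes of migratory crest that are not among the 7, 5 were lower and 5 higher, with a median log2 fold change of 0.15, and the higher count was 3 without beta-catenin cKO replicate 1. Among the lower genes were Tfap2b, an AP-2 factor of crest, at 19.8 TPM in wild type and 10.8 TPM in beta-catenin cKO, and Erbb3, the neuregulin receptor of crest and Schwann precursors (-0.64, adjusted p = 0.00291). Erbb3 was at 16.3, 15.6 and 12.1 TPM in wild type and 9.52, 8.56 and 12.3 TPM in beta-catenin cKO, so that replicate 3 was again the highest of the group and its TPM overlapped that of wild type replicate 3. Ltbp1, a TGF-beta binding protein, rose from 19.7 to 32.0 TPM (0.59, adjusted p = 0.000518). Ngfr, a neurotrophin receptor gene of the same list, was also called higher, but its call rested on single libraries. With wild type replicate 1 set aside the estimate was 0.23 (adjusted p = 0.0607). Setting aside a mutant library gave 0.28 for replicate 1 (adjusted p = 0.0815) and 0.31 for replicate 2 (adjusted p = 0.0545). Among 14 genes of Schwann precursors and boundary caps, 2 were higher and 2 lower. Of 19 genes of the neural plate border and premigratory crest, 9 were lower and 0 higher (median -0.34), and the count of lower genes was 6 to 11 over the settings tried. Tfap2a fell from 12.4 to 5.82 TPM (-1.19, adjusted p = 1.26e-05) and Msx2 from 19.2 to 9.29 TPM (-1.16, adjusted p = 0.000114). Surface ectoderm also expresses Tfap2a and Msx2, and 6 of 15 surface ectoderm genes were lower in beta-catenin cKO, with a summed level of 472 to 510 TPM against 520 to 620 in wild type. The part of surface ectoderm in the border genes was not tested.

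In Emg1 cKO more of the migratory crest genes were higher than lower. Of 23 tested, 13 were higher and 2 lower (median 0.20), and the higher count was 8 without wild type replicate 3 and 8 without Emg1 cKO replicate 3. Ngfr, the low-affinity neurotrophin receptor of migrating crest, which also marks other tissues, rose from 49.8 to 92.5 TPM (0.77, adjusted p = 2.62e-05), and Sox5, a SOX factor that works beside SOXE factors in cartilage and crest, from 6.39 to 9.73 TPM (0.49, adjusted p = 0.000459). Tfap2b fell from 19.8 to 15.2 TPM (-0.50, adjusted p = 0.00112), while Erbb3 was not called (-0.17). Of 14 Schwann precursor genes 7 were higher and 2 lower. Fabp7, which also marks neural progenitors, rose from 40.0 to 87.4 TPM (0.99, adjusted p = 0.00142), and Pmp22, a peripheral myelin gene that is widely expressed in mesenchyme, fell from 81.5 to 48.5 TPM (-0.86, adjusted p = 0.00102). In the same libraries 15 of 16 neuron genes were higher, with summed levels of 1053 to 1123 TPM against 364 to 475 in wild type. The neuron list shares 0 tested genes with the migratory crest list and 1 with the Schwann precursor list, and the part of neurons in these counts was not tested. Border genes had more lower than higher calls in Emg1 cKO, with 2 higher and 5 lower of 19 (median -0.14), and the 2 higher were 1 without wild type replicate 1 or 3 or Emg1 cKO replicate 2 or 3. Of the surface ectoderm genes, 14 of 15 were lower and 1 higher in Emg1 cKO, with summed levels of 323 to 426 TPM against 520 to 620 in wild type. Their part in the fall of Tfap2b and of the border genes was not tested.

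In Vangl2 Lp/Lp 3 of 23 migratory crest genes were higher and 0 lower, 5 of 14 Schwann precursor genes were higher and 1 lower, and border genes split with 4 higher and 3 lower of 19. Ngfr rose to 75.3 TPM (0.51, adjusted p = 0.00185) and Pmp22 fell to 49.5 TPM (-0.80, adjusted p = 0.00476). Erbb3 was not called (0.08). These counts rest on single libraries: without Vangl2 Lp/Lp replicate 1, 1 migratory crest gene and 3 Schwann precursor genes were higher and 1 border gene was lower. Without wild type replicate 3, 1 migratory crest gene, 3 Schwann precursor genes and 2 border genes were higher. The Schwann precursor list shares 1 tested gene, Fabp7, with the neural progenitor list and 1 with the neuron list. In Vangl2 Lp/Lp 11 of 18 neural progenitor genes and 13 of 16 neuron genes were higher. The part of neural tissue in the crest and Schwann precursor counts was not tested.

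Among derivatives of the crest, sensory neuron genes were higher for 5 and lower for 2 of 17 in beta-catenin cKO, higher for 13 and lower for 0 in Emg1 cKO, and higher for 6 and lower for 0 in Vangl2 Lp/Lp. In Vangl2 Lp/Lp the higher count was 2 without its replicate 1, 2 without wild type replicate 1 and 3 without wild type replicate 2, and in beta-catenin cKO the lower count was 1 without its replicate 1 or 3. General neuron genes moved with them: of 16, 2 of which are also on the sensory list, 11 were higher and 1 lower in beta-catenin cKO, 15 and 0 in Emg1 cKO, with 13 and 0 in Vangl2 Lp/Lp. Their summed levels were 724 to 766 TPM in beta-catenin cKO and 644, 650 and, in replicate 1, 1175 TPM in Vangl2 Lp/Lp, and their part in the sensory counts was not tested. Pou4f1, a factor of sensory and dorsal spinal neurons, was at 5.76 TPM in wild type and fell in beta-catenin cKO to 2.6 TPM (-1.27, adjusted p = 0.00027). Ret, the GDNF receptor of enteric crest and of several other tissues, rose in beta-catenin cKO from 7.53 to 15 TPM (0.88, adjusted p = 6.61e-05), and the level was 14.3 TPM in Emg1 cKO (0.81, called higher). The estimate for Ret in Vangl2 Lp/Lp was 0.10 (not called, adjusted p = 0.571). Of 9 autonomic and enteric genes, 4 were higher and 1 lower in beta-catenin cKO, 6 and 1 in Emg1 cKO, with 4 and 0 in Vangl2 Lp/Lp. The 4 higher genes in Vangl2 Lp/Lp came to 2 without its replicate 1, without wild type replicate 1 or 2, or with only the 2 genotypes fitted. Of the 10 melanoblast genes listed 4 passed the filter, and Tyr and Tyrp1 were at 0.

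Of 16 tested partners and targets of SOXE factors, 4 were higher and 4 lower in beta-catenin cKO, 7 and 2 in Emg1 cKO, with 4 and 1 in Vangl2 Lp/Lp, where 1 was higher without replicate 1 and 2 without any single wild-type library. In beta-catenin cKO Erbb3, which is tied to SOX10 in glia, fell, while the cartilage targets of SOX9, Col2a1 and Col9a1, rose (Col9a1 from 31.2 to 57.6 TPM, log2 fold change 0.77). Hapln1, also on this list, went the other way from Col2a1 and Col9a1 and was called lower. Its call did not hold in every setting: with library totals alone the estimate was -0.25 (adjusted p = 0.0521). With beta-catenin cKO replicate 2 set aside it was -0.24 (adjusted p = 0.105). These are directions of single genes, and the pattern over them was not tested. Summed blood genes, 10 of them, were at 29595 to 35354 TPM in wild type and lower in every beta-catenin cKO and Emg1 cKO library (16929 to 22998 TPM). In Vangl2 Lp/Lp they were at 31923, 29154 and 20423 TPM, the last 2 also below the wild-type range. Their part in the levels of the crest genes was not tested.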

How the data were processed

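Caudal embryonic RNA was sequenced in 12 libraries, 3 per genotype. Per the submitters' processing notes, Trimmomatic 0.39, STAR 2.7.10b and mm10 were used. How reads were counted, on which strand and with which annotation: not given in the sources used here. For each gene and library the authors deposited a log2 TPM value and an expected count, without normalization. All 24 value columns were matched to libraries. TPM were rebuilt from counts for genes whose deposited log2 value was 0.

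After rounding, expected counts went into edgeR 4.0.16 (running in R 4.3.3) with TMM scaling, a joint fit of all 12 libraries, the two-sided quasi-likelihood F test, and Benjamini-Hochberg adjustment over 17848 genes in each of 6 comparisons. The SE is the size of the log2 fold change divided by the square root of F. Depth was 32863562 to 46464596 reads. Alternatives used limma 3.58.1 and DESeq2 1.42.0. Tables used pandas 2.3.3 and numpy 2.4.6 under Python 3.11.15, and plots matplotlib 3.10.9. The fit was tested on simulated data.

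The members and gene lists were chosen with earlier results of these data known. Genes named besides the 7 and the label check are, for each list, up to 3 called genes with the smallest adjusted p per comparison with wild type, and for each member the 3 most alike in profile, other than gene models. A gene named for 1 comparison may be given in others, and Hoxc10, Tyr, Tyrp1, Ednra and Ece1 were chosen after their values were seen. A gene that this rule picked is not reported here. The p-values measure the spread between pooled libraries.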

Additional observations from a re-analysis of the deposited data

How the results depend on the processing

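Of the members' calls against wild type, Sox10 and Sox9 in beta-catenin cKO, Sox9 and Ednrb in Emg1 cKO and Ednrb in Vangl2 Lp/Lp were called under every alternative run. No member changed direction past the threshold. Foxd3 in beta-catenin cKO was called with no filter (adjusted p = 0.00261), filterByExpr (0.047), DESeq2 (0.019) and the replicate block (-0.82, adjusted p = 0.0341). No pairing by replicate number was seen: 18 same-numbered pairs correlated at -0.10 to 0.10 and none above 0.1. The 36 differently numbered pairs correlated at -0.10 to 0.11. A pairing that moves few genes would not show in such correlations over all tested genes. Without a filter, the number of called members was 4 in beta-catenin cKO against Emg1 cKO, 3 against Vangl2 Lp/Lp, and 2 in Emg1 cKO against Vangl2 Lp/Lp. With DESeq2 it was 3, and with the replicate block 2, in beta-catenin cKO against Vangl2 Lp/Lp.

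All genes called came to 2624 with no filter and 737 with only the 2 genotypes fitted in Vangl2 Lp/Lp against wild type. They came to 1308 with no filter and 987 with DESeq2 in beta-catenin cKO against Emg1 cKO, and 1339 with no filter in beta-catenin cKO against Vangl2 Lp/Lp. In Emg1 cKO against Vangl2 Lp/Lp they came to 1244 with no filter, 940 with DESeq2 and 294 with only the 2 genotypes. Leaving out single libraries gave 1436 to 2643 genes and 2 to 3 members in beta-catenin cKO against wild type, 2610 to 3873 and 2 to 2 in Emg1 cKO, and 719 to 1444 and 1 to 2 in Vangl2 Lp/Lp. Between mutants it gave 231 to 521 genes and 1 to 2 members, 371 to 576 and 1 to 2, and 186 to 666 and 0 to 1. The share of higher calls was 51.7%, 52.1% and 62.0% against wild type, 68.8%, 68.3% and 76.4% with library totals alone, and 82.5%, 82.0% and 85.1% with log2(TPM + 1). That last scale moved the all-gene median by 0.10, 0.11 and 0.08. In Emg1 cKO against Vangl2 Lp/Lp it went from 46.5% to 60.4%. Of other named genes with a call, 43 of 324 leave-one-out values in beta-catenin cKO, 34 of 402 in Emg1 cKO and 66 of 294 in Vangl2 Lp/Lp lost it, as did 19 of 432, 17 of 536 and 38 of 392 under the other settings. Foxd3 had 59.0 to 118.5 reads in the beta-catenin cKO libraries, and what depth and the spread between libraries each add there was not separated.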
